A study of Mus musculus with 4 samples.

Results

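At 2611 CCGG sites of the mouse genome, the relative signal of the enzyme that cuts unmodified DNA was at least 2-fold higher in infarcted than in non-infarcted left ventricle, both in mice lacking Neil3 and in wild-type mice. These sites were chosen by measured values. They had to be autosomal, listed in all 4 samples, with a mean MspI signal of at least 20 over the 4 samples and an HpaII signal of at least 15 in both infarcted samples. The HpaII/MspI ratio of each site was divided by the median ratio of its sample, and this scaled ratio had to be at least 2-fold higher in infarcted tissue in each genotype. Of 996020 sites listed in all 4 samples, 967498 were autosomal, 682441 passed the MspI minimum and 490581 were eligible under both minimums. The 2611 members are 0.532% of the eligible sites.

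The 4 samples were genomic DNA from Neil3-/- infarcted, Neil3-/- non-infarcted, wild-type infarcted and wild-type non-infarcted left ventricle of C57BL/6 mice aged 8 weeks, taken 3 days after a myocardial infarction. Each group was 1 sample. The non-infarcted samples therefore also date from after an infarction, and the labels do not say whether infarcted and non-infarcted tissue shared a heart or whether animals were pooled. Neil3 is a DNA glycosylase that removes oxidized bases, and the Neil3-/- samples are called Neil3-null below. With 1 sample per group, no difference below has a replicate check, and none carries a p-value.

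In mammalian DNA, cytosine is methylated mainly where it is followed by guanine, by DNA methyltransferases. TET enzymes oxidize 5-methylcytosine to 5-hydroxymethylcytosine, and base excision repair can then replace oxidized products with plain cytosine. HpaII and MspI both cut CCGG, but HpaII is blocked by a modified inner cytosine while MspI cuts through methylation there. Glucosylation of 5-hydroxymethylcytosine blocks MspI as well, so the library made after glucosylation and MspI, called C+mC in the labels, holds plain and methylated sites. A site with a higher HpaII/MspI ratio is read as less modified, and a lower MspI signal raises that ratio as much as a higher HpaII signal does. Infarcted myocardium loses cardiomyocytes and takes up leukocytes within days, and in bulk tissue DNA a change of cell make-up and a change of modification within cells cannot be told apart.

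The sequences of 3 promoter windows and of 1 microRNA hairpin show the kinds of place in which members lay. Promoter windows run from 250 bases before to 50 bases after the start site in RefSeq on GRCm38.p6, are written on the gene's strand, and carry the member CCGG in capitals. The Wasl window, chr6:24664946-24665245 on the minus strand, holds the member ranked first by the smaller of its folds in the 2 genotypes, 34 bases before the start site. It has 36 CpG and 5 CCGG in its 300 bases and is 72.3% G and C.
Wasl: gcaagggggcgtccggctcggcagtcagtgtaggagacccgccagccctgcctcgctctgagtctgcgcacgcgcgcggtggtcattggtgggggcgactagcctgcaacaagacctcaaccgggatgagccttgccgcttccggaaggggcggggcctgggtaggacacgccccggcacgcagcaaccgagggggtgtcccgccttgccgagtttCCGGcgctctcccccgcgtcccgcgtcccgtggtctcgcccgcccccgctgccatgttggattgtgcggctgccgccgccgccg
The Slc10a1 window, chr12:80968030-80968329 on the minus strand, holds a member at which HpaII signal was higher and MspI signal within 1.5-fold after scaling. It has 6 CpG and is 49.7% G and C, and its single CCGG lies 57 bases before the start site.
Slc10a1: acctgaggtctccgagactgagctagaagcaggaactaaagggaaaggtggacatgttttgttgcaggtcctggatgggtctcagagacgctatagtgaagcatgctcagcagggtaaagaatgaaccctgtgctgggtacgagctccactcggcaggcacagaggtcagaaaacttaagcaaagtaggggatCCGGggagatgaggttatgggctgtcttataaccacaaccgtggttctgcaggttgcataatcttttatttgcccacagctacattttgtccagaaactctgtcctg
The Olfm3 window, chr3:115080715-115081014 on the plus strand, holds a member at which MspI signal was lower instead, 39 bases after the start site.
Olfm3: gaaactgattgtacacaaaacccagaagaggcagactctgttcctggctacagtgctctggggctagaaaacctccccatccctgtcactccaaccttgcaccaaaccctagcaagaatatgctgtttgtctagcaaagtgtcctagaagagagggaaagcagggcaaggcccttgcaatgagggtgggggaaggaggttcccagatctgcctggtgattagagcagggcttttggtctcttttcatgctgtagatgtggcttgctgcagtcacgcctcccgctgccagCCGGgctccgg
The hairpin of Mir92-1, chr14:115044427-115044506 on the plus strand in the RefSeq miRNA table, holds a member CCGG within its mature arm mmu-miR-92a-3p, beginning at base 14 of the mature RNA. It was picked out for its place after its values were seen.
Mir92-1: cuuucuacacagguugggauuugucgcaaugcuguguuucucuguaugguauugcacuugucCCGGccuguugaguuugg
mmu-miR-92a-3p: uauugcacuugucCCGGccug

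The 3 libraries of each sample had similar total signal, so the ratios are relative values and not shares of DNA molecules. Total HpaII, C+mC and MspI signal lay between 34161766 and 43985354, lowest in the wild-type infarcted sample. The median HpaII/MspI ratio used for scaling was 0.739 in Neil3-null infarcted and 0.752 in Neil3-null non-infarcted tissue, and 0.740 in wild-type infarcted and 0.726 in wild-type non-infarcted tissue. Across eligible sites, log2 signal of MspI correlated between samples at 0.897 to 0.931. The range was 0.868 to 0.910 in HpaII libraries and 0.787 to 0.871 in C+mC libraries. The C+mC library of the wild-type non-infarcted sample had the lowest mean correlation with the others, 0.804. The number of sequence tags behind a value is unknown, so no counting interval can be given for a signal.

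Sites that changed the same way in both genotypes outnumbered sites that changed in opposite ways under the rule. Beside the 2611 members, 197 eligible sites were at least 2-fold higher in infarcted tissue in Neil3-null and at most 0.5-fold in wild-type, and 265 were at most 0.5-fold in Neil3-null and at least 2-fold higher in wild-type. These 462 opposite sites are 0.0942% of the eligible sites, so the members outnumbered them by 5.65 to 1. A further 285 sites, 0.0581%, were at most 0.5-fold in both genotypes. Taken alone, 14963 eligible sites were at least 2-fold higher in infarcted tissue in Neil3-null, 3.05%, and 20975 in wild-type, 4.28%. The members were 17.4% of the Neil3-null sites and 12.4% of the wild-type sites. As these counts come from the values that chose the members, they describe the set.

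**Figure D1:**
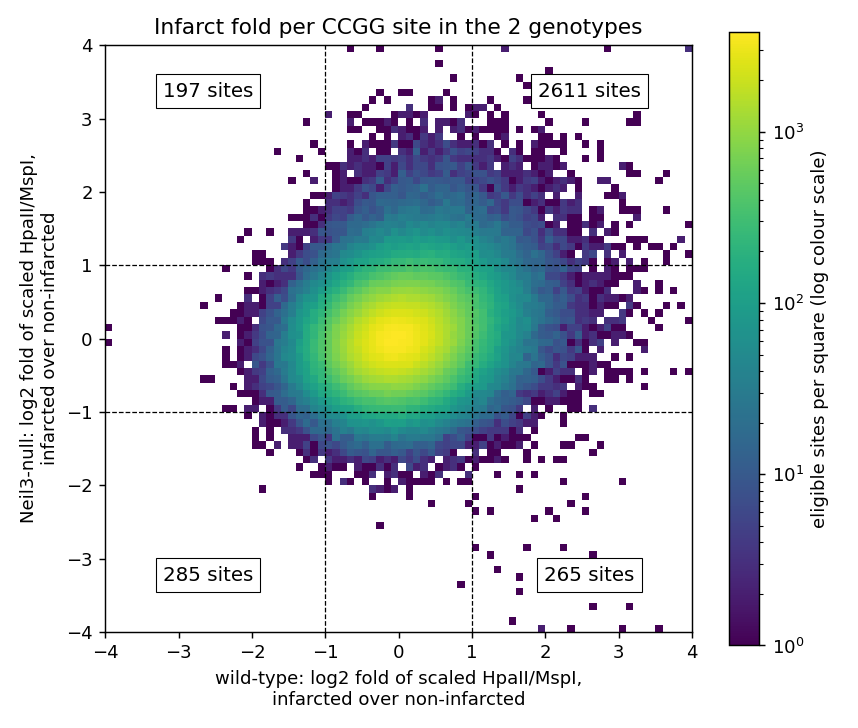
Log2 fold of the scaled HpaII/MspI ratio, infarcted over non-infarcted, in wild-type (x axis) and Neil3-null (y axis) at the 490581 eligible sites, with colour for the number of sites per square and folds beyond the axes drawn at their edge. Dashed lines mark 2-fold, and the corners hold 2611 members, 197 and 265 opposite sites and 285 sites lower in both.

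The HpaII minimum applied to infarcted tissue alone, and the balance of directions changed when infarcted and non-infarcted samples were filtered alike. With a mean HpaII signal of at least 15 over the 4 samples, 558547 sites were eligible. Of these, 2132 were at least 2-fold higher in both genotypes, 0.382%, 1763 went opposite ways, 0.316%, and 1512 were at most 0.5-fold in both, 0.271%. The ratio of higher to opposite sites was then 1.21 to 1. With HpaII of at least 15 in each of the 4 samples, a filter chosen after seeing the data, 845 sites were higher in both, 348 went opposite ways and 285 were lower in both. Without any HpaII minimum, 6867 sites went opposite ways, against 5500 higher in both and 4046 lower in both. Opposite sites were then more numerous than sites higher in both. Sites that moved the same way, whether higher or lower, still outnumbered opposite sites under each of these settings. The excess of members over opposite sites under the rule thus depended on which samples the HpaII minimum was applied to.

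**Figure D2:**
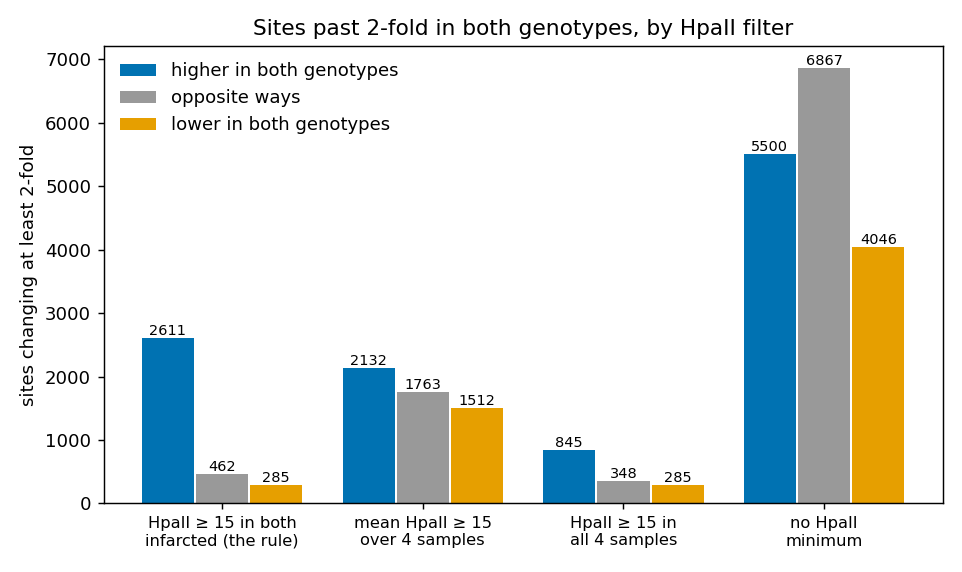
Number of sites past 2-fold in both genotypes under 4 HpaII filters, as bars for sites higher in both, opposite and lower in both. The lead of the sites higher in both is 2611 against 462 opposite under the rule and 2132 against 1763 where the minimum is on the mean of the 4 samples.

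The same 2-fold cut was also passed between genotypes. Over the 558547 sites with mean HpaII of at least 15, 5.79% differed at least 2-fold either way between infarcted and non-infarcted tissue in Neil3-null and 8.63% in wild-type. Between Neil3-null and wild-type, 7.26% differed as much in infarcted and 5.15% in non-infarcted tissue. The infarct differences were therefore of about the same size, site by site, as the differences between genotypes in the same kind of tissue.

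Read in the genotype that did not choose them, sites were higher in infarcted tissue more often than sites in general, by a small amount. Of 28107 sites chosen as at least 2-fold higher in wild-type, with MspI and HpaII minimums taken in wild-type only, 10.99% were at least 2-fold higher in Neil3-null and 6.52% were at most 0.5-fold, against 5.01% and 4.92% over all 659438 sites with that MspI minimum. Their median fold in Neil3-null was 1.12. Of 25041 sites chosen in Neil3-null, 14.1% were at least 2-fold higher in wild-type and 7.81% at most 0.5-fold, against 6.49% and 6.25% over all 700402 sites with that minimum. Their median fold in wild-type was also 1.12. Sites chosen as at most 0.5-fold leaned the same way, so the lean was not particular to higher sites. Of 31468 such sites in wild-type, 8.18% were at most 0.5-fold in Neil3-null and 5.46% at least 2-fold higher. Of 24445 in Neil3-null, 11.99% were at most 0.5-fold in wild-type and 8.56% at least 2-fold higher. Most sites chosen in 1 genotype did not pass 2-fold in the other.

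By the rule, which asks for a higher ratio in infarcted tissue, the members were low in non-infarcted tissue, and in infarcted tissue they were near the level of the other sites. Their median scaled ratio was 1.22 in Neil3-null infarcted and 0.446 in Neil3-null non-infarcted tissue, and 1.35 in wild-type infarcted and 0.502 in wild-type non-infarcted tissue. Over all eligible sites the medians were 1.38 and 1.36 in Neil3-null and 1.39 and 1.38 in wild-type, infarcted and then non-infarcted. The members' median fold was 2.47 in Neil3-null and 2.52 in wild-type, with highest folds of 60.1 and 33.9. Few went far past the threshold. In both genotypes, 685 members reached 2.5-fold, 259 reached 3-fold, 62 reached 4-fold, 17 reached 5-fold and 3 reached 10-fold.

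Median HpaII signal at the members was 28.5 in Neil3-null infarcted and 11.5 in Neil3-null non-infarcted tissue, and 26.1 in wild-type infarcted and 15.4 in wild-type non-infarcted tissue. Many non-infarcted values lay at the bottom of the HpaII scale. At 245 members, 9.38%, the Neil3-null non-infarcted HpaII signal was at or under the 5th percentile of its library, against 0.178% of the eligible sites. In wild-type non-infarcted tissue the count was 90 members, 3.45%, against 0.0528%. Either sample was that low at 318 members, and both at 17. HpaII reached at least 10 in all 4 samples at 1531 members. Folds over such low values depend on a few signal units.

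The library that moved was not the same at all members. Folds of single libraries are given after dividing by the median of the library, and the classes that follow were set after the values were seen. At 1833 members, 70.2%, HpaII was at least 1.5-fold higher in both genotypes and MspI stayed within 1.5-fold either way. At these the median HpaII fold was 2.34 in Neil3-null and 2.32 in wild-type. At 48 members, 1.84%, MspI was at most 0.5-fold in both genotypes and HpaII stayed within 1.5-fold. Their median HpaII folds were 1.02 in Neil3-null and 1.01 in wild-type, against MspI folds of 0.330 and 0.303. The remaining 730, 28.0%, had moderate shifts of both libraries or exceeded these bounds. For the 48 sites the higher ratio came with a lower MspI signal, and "less modified" does not describe what was measured there. Their share was larger among the strongest members, at 9 of the 62 past 4-fold in both genotypes. The cuts partly set this. The class with lower MspI asked for at most 0.5-fold, and the class with higher HpaII for a rise of only 1.5-fold. The 48 are not all the members with lower MspI, because the bound on HpaII left others among the 730. Whatever the HpaII, MspI was at most 0.5-fold in both genotypes at 68 members and at 14 of the 62. HpaII was not higher in either genotype at 25 members.

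**Figure D3:**
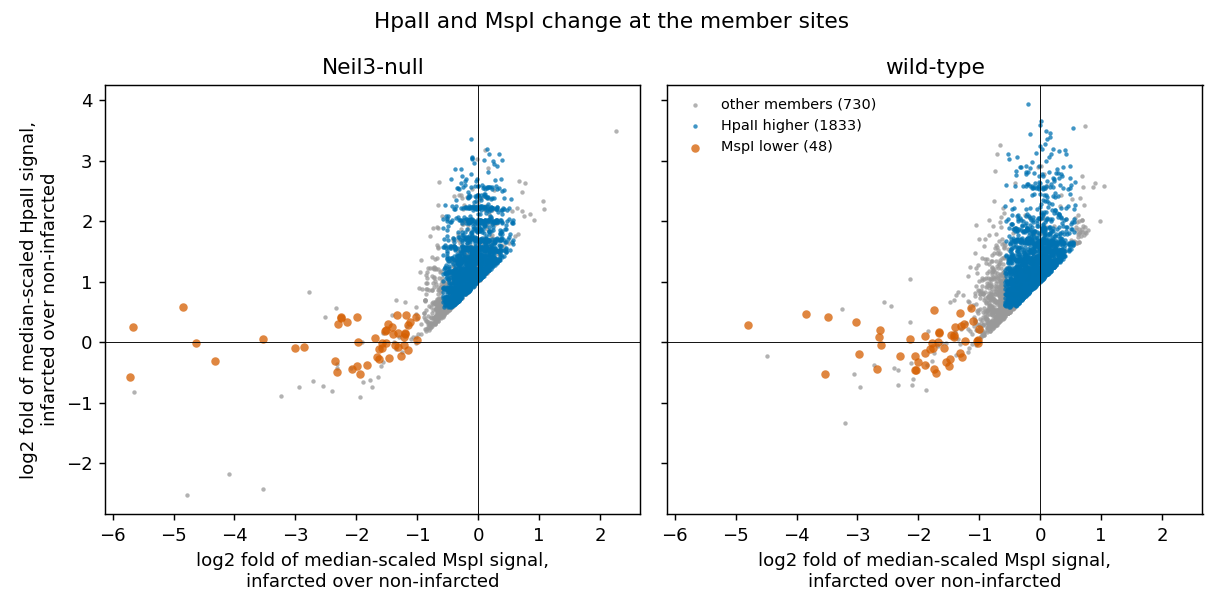
Log2 fold of HpaII signal (y axis) against log2 fold of MspI signal (x axis), infarcted over non-infarcted and each scaled to its library's median, at the 2611 members in Neil3-null and wild-type. The 1833 members with higher HpaII form a column near a log2 MspI fold of 0, and the 48 with lower MspI lie to the left near a log2 HpaII fold of 0.

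Of the 10 top-ranked members in or near genes, those ranked first and second, at Wasl and Lrrc8d, belonged to the class with lower MspI. The member near Wasl, which encodes N-WASP, an activator of actin branching, lies at chr6:24665026-24665029, just outside the annotated gene. Its MspI signal was 1.91 in Neil3-null infarcted and 54.6 in Neil3-null non-infarcted tissue, and 1.73 in wild-type infarcted and 60.1 in wild-type non-infarcted tissue. Its HpaII signal was 172 and 116 in Neil3-null and 132 and 133 in wild-type, infarcted before non-infarcted. Both infarcted MspI values were near 0 while HpaII was high in all 4 samples, which gave ratio folds of 42.9 in Neil3-null and 33.9 in wild-type. The C+mC signal, which also comes from MspI, was 55.5 in Neil3-null infarcted and 78.0 in Neil3-null non-infarcted tissue, and 78.3 in wild-type infarcted and 132 in wild-type non-infarcted tissue. So the glucosylated MspI library still held the Wasl site in infarcted tissue where the plain MspI library had almost no signal.

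Within Lrrc8d, a subunit of volume-regulated anion channels, the member at chr5:105759418-105759421 had MspI signal of 1.63 in Neil3-null infarcted and 82.2 in Neil3-null non-infarcted tissue, and 4.88 in wild-type infarcted and 87.1 in wild-type non-infarcted tissue. Here C+mC was low as well, at 5.79 in Neil3-null infarcted and 60.9 in Neil3-null non-infarcted tissue, and 12.7 in wild-type infarcted and 72.7 in wild-type non-infarcted tissue. HpaII was 60.4 and 51.4 in Neil3-null and 41.7 and 37.1 in wild-type, infarcted before non-infarcted. Both MspI libraries were thus lower in infarcted tissue at Lrrc8d, and the HpaII library was not.

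The only other member past 10-fold in both genotypes lies outside genes, 193487 bp from Id2, with MspI of 0.795 in Neil3-null infarcted and 39.6 in Neil3-null non-infarcted tissue, and 1.62 in wild-type infarcted and 45.4 in wild-type non-infarcted tissue. Its HpaII was lower in infarcted tissue as well, at 28.98 against 51.6 in Neil3-null and 37.5 against 53.9 in wild-type.

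The member in Alpl, the tissue-nonspecific alkaline phosphatase, lies 197 bases after its start site. Its MspI signal was 14.3 in Neil3-null infarcted and 114 in Neil3-null non-infarcted tissue, and 16.2 in wild-type infarcted and 123 in wild-type non-infarcted tissue, while HpaII was 146 and 158 in Neil3-null and 136 and 172 in wild-type, infarcted before non-infarcted. Fam131b, with a member 213 bases after its start site, had the same pattern, with ratio folds of 4.10 in Neil3-null and 4.56 in wild-type. Members with lower MspI also lay in Pik3r2, a regulatory subunit of phosphoinositide 3-kinase (folds of 16.1 in Neil3-null and 7.10 in wild-type), and in Syn2, a synaptic vesicle protein (6.27 in Neil3-null and 6.69 in wild-type). At Cdh1, the gene of E-cadherin, HpaII was higher and MspI lower, and the folds were 7.48 in Neil3-null and 9.005 in wild-type. The site at Cbl, a ubiquitin ligase, which is also within 1 kb of Mcam, a cell adhesion molecule, had folds of 3.86 in Neil3-null and 8.21 in wild-type with MspI of 10.8 and 8.52 in the infarcted samples.

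Non-member CCGG sites measured close to these had MspI near even at the median. The 48 members with lower MspI had 24 measured non-members within 500 bp, with median MspI folds of 1.06 in Neil3-null and 0.963 in wild-type. MspI was at most 0.5-fold in both genotypes at 0 of the 24. Over all sites with mean MspI of at least 20 it was so at 169 of 682441, and 68 of those were members. With so rare a fall, the 0 cannot show whether neighbours differ from sites in general. In Pik3r2, the sites 132 and 187 bp away had ratio folds between 0.883 and 1.52.

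Members with higher HpaII, a class that asked for a smaller change than the lower MspI class did, had smaller folds. Their HpaII signal in non-infarcted tissue was low. The strongest of them, chr15:63658850-63658853, lies outside genes, 117121 bp from Gsdmc. Its HpaII signal was 40.1 in Neil3-null infarcted and 4.45 in Neil3-null non-infarcted tissue, and 53.2 in wild-type infarcted and 8.74 in wild-type non-infarcted tissue. The Neil3-null non-infarcted value was under the 5th percentile of its library. The ratio folds were 8.24 in Neil3-null and 9.41 in wild-type. In Fan1, a nuclease that repairs DNA crosslinks, HpaII was 31.9 and 7.71 in Neil3-null and 30.7 and 8.66 in wild-type, infarcted before non-infarcted, with folds of 4.91 in Neil3-null and 5.02 in wild-type. In Tbc1d22a the folds were 5.11 in Neil3-null and 8.93 in wild-type. Non-infarcted HpaII there was 4.66 in Neil3-null and 3.05 in wild-type, both under the 5th percentiles of their libraries. In Sipa1l3, which was outside this class, the folds were 6.73 in Neil3-null and 4.88 in wild-type. HpaII was higher there, at 5.42-fold in Neil3-null and 2.98-fold in wild-type. MspI was lower, at 0.804-fold in Neil3-null and 0.610-fold in wild-type. Neil3-null non-infarcted HpaII at Sipa1l3 was 4.48, also under the 5th percentile of its library.

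In Pdgfra, the platelet-derived growth factor receptor of fibroblasts, HpaII was 20.9 in Neil3-null infarcted and 4.63 in Neil3-null non-infarcted tissue, and 28.3 in wild-type infarcted and 3.19 in wild-type non-infarcted tissue. MspI at that site was 21.9 and 23.0 in Neil3-null and 22.1 and 31.0 in wild-type, infarcted before non-infarcted. The folds were 4.81 in Neil3-null and 12.2 in wild-type, and both non-infarcted HpaII values were at or under the 5th percentiles of their libraries, 4.72 and 3.19. The top-ranked members within 1 kb of a gene end also included Fam243 (folds of 4.41 in Neil3-null and 11.9 in wild-type) and Helz, a helicase (3.58 in Neil3-null and 5.07 in wild-type). HpaII was higher in both infarcted samples at both. Scaled MspI was lower in wild-type infarcted tissue there, at 0.598-fold in Fam243 and 0.516-fold in Helz. Non-infarcted HpaII at Fam243 was 4.42 in Neil3-null and 3.19 in wild-type, both under the same 5th percentiles.

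**Figure D4:**
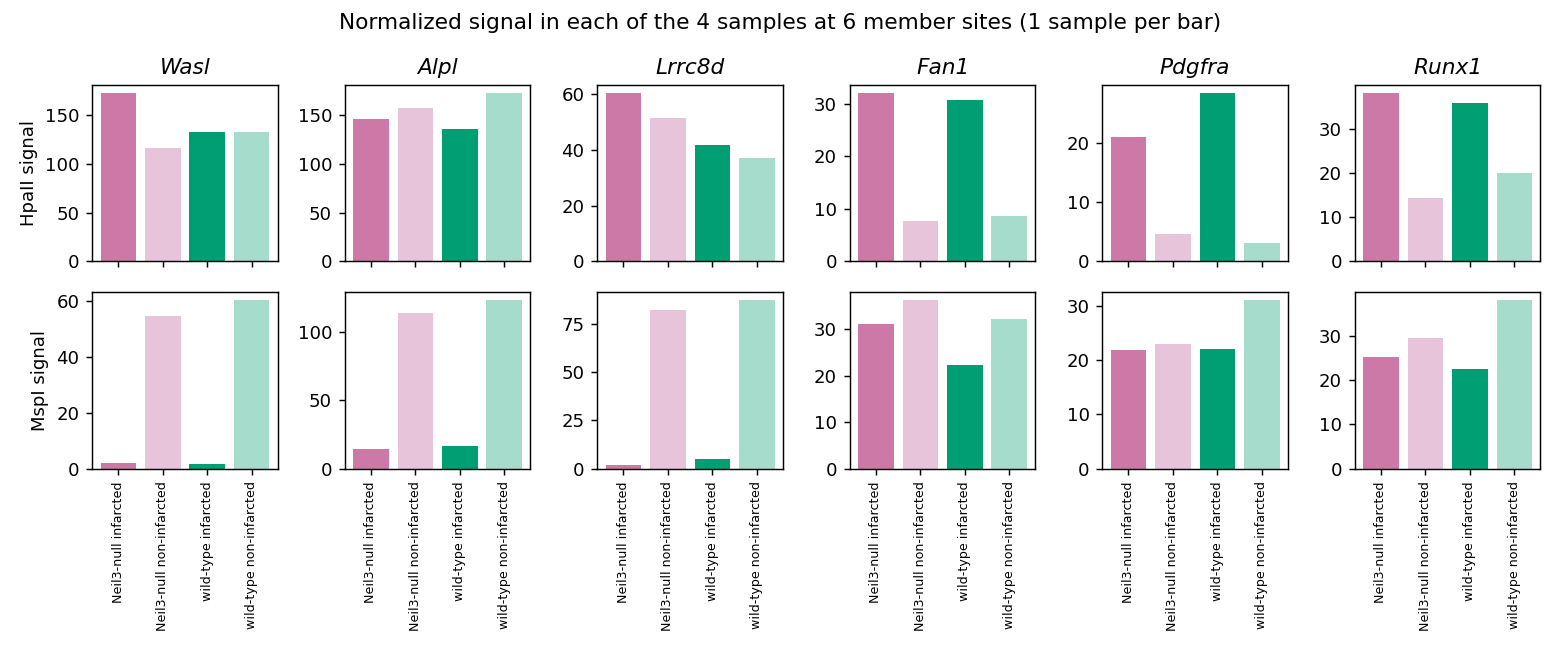
HpaII signal (upper row) and MspI signal (lower row) at 6 members in the Neil3-null infarcted, Neil3-null non-infarcted, wild-type infarcted and wild-type non-infarcted sample, 1 bar per sample. At Wasl, Alpl and Lrrc8d the infarcted bars are low in MspI, and at Fan1, Pdgfra and Runx1 they are high in HpaII.

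At the threshold, members and non-members were alike. Just inside lay sites in Mad1l1, Osbpl3 and Prkce, with a smaller fold that rounds to 2 from above. Just outside lay a site in Kat7, a site near Cdc7 and a site near Tenm3, with a smaller fold that rounds to 2 from below. Their larger folds were 2.37 in wild-type at Kat7, 2.42 in Neil3-null near Cdc7 and 2.72 in Neil3-null near Tenm3. HpaII in Kat7 was 34.6 and 19.2 in Neil3-null and 29.9 and 19.5 in wild-type, infarcted before non-infarcted.

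Members were spread over many genes. Of 18230 protein-coding autosomal genes with an eligible site inside or within 1 kb, 1300 held a member, 7.13%. Of these, 1144 held 1 member, 136 held 2 and 20 held 3 or more. The genes with most members were long. Wwox, a WW-domain oxidoreductase, spans 913 kb and held 6 members among 333 eligible sites, 1.80%. Trerf1, a transcriptional regulator, spans 221 kb and held 6 among 115, 5.22%. It lies in the megabase of chromosome 17 that held most members, 9 among 529 eligible sites. A megabase of chromosome 15 held 7 among 194, a higher share. Asap1, a GTPase-activating protein for Arf, held 4 among 79, 5.06%. Tenm2, Foxp1 and Fstl4 held 4 each, and Syne2 held 3. The shares exceed the 0.532% of all eligible sites because the genes were chosen for their members.

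In Trerf1, the strongest member had HpaII of 31.8 and 11.2 in Neil3-null and 24.8 and 6.02 in wild-type, infarcted before non-infarcted, with folds of 2.53 in Neil3-null and 4.65 in wild-type. The other Trerf1 members had smaller folds between 2.05 and 2.40. In Wwox the strongest member reached 3.99 in Neil3-null and 5.49 in wild-type, and in Tenm2, a cell-surface teneurin, 4.54 in Neil3-null and 7.44 in wild-type. Non-infarcted HpaII at this Tenm2 member was 4.38 in Neil3-null and 3.19 in wild-type, both under the 5th percentiles of their libraries. At the Wwox member it was 4.35 in Neil3-null, also under that percentile, and 6.02 in wild-type. The first Foxp1 member, in a forkhead transcription factor gene, reached 3.07 in Neil3-null and 5.56 in wild-type. In Syne2, a nuclear envelope spectrin-repeat protein, the first member reached 4.13 in Neil3-null and 7.70 in wild-type. The wild-type non-infarcted HpaII was under its 5th percentile at both, 3.19 at Foxp1 and 3.17 at Syne2. The strongest member in Fstl4 reached 2.55 in Neil3-null and 2.80 in wild-type, and that in Asap1 2.37 in Neil3-null and 5.03 in wild-type. Few members lay close together, but near a member the share of members was higher. Consecutive members lay within 500 bp of each other in 10 pairs and within 5000 bp in 36 pairs. Of 823 eligible sites within 500 bp of another site that is a member, 20 were members, 2.43%, and of 8485 within 5000 bp, 71 were, 0.837%, against 0.532% of all eligible sites. By chromosome, members were between 0.437% of the eligible sites on chromosome 7 and 0.631% on chromosome 10.

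Each gene list held few genes with a member, and the order of the lists changed with the window. Of 61 leukocyte marker genes with an eligible site, 7 held a member, 11.5%, against 7.13% of all genes. Among them were Syk, a kinase of immune cells, Ikzf1, Runx1 and Runx3, which are transcription factors of blood cells, Lcp1, an actin-bundling protein of leukocytes, and Selplg, a selectin ligand. Leukocyte members were 0.678% of the eligible sites in that list, against 0.526% for all genes, and leukocyte genes had a median of 12 eligible sites against 9. With a window of 10 kb, genes with a member were 16.9% of the leukocyte, 16.7% of the fibroblast and 14.9% of the cardiomyocyte genes. They were 12.5% of the matrix and of the smooth muscle and pericyte genes, against 9.21% of all genes. By site, members were 0.759% of the leukocyte, 0.712% of the fibroblast and 0.634% of the matrix list. They were 0.432% of the cardiomyocyte and 0.434% of the smooth muscle and pericyte list, against 0.534% for all genes. At Runx1, HpaII was 38.0 in Neil3-null infarcted and 14.4 in Neil3-null non-infarcted tissue, and 35.7 in wild-type infarcted and 20.02 in wild-type non-infarcted tissue, with folds of 3.14 in Neil3-null and 2.96 in wild-type. At Ikzf1, HpaII was 55.5 and 29.6 in Neil3-null and 57.1 and 27.6 in wild-type, infarcted before non-infarcted, with folds of 2.84 in Neil3-null and 3.25 in wild-type. In both genes both infarcted HpaII values were above both non-infarcted ones, as the choice of members favours. Selplg differed, because its HpaII was 83.0 in Neil3-null infarcted and 105 in Neil3-null non-infarcted tissue, and its fold of 2.35 there came from MspI of 20.4 against 59.9.

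Of 40 genes of extracellular matrix and remodelling, 4 held members, 10%, against 7.13% of all genes. Their 5 members were 0.728% of 687 eligible sites, against 0.526% for all genes, and so few sites cannot show a higher share. The genes were Smad3, a mediator of transforming growth factor signals, with 2 sites, Fbn1, the fibrillin gene, Ctsz, a cathepsin, and Plaur, the urokinase receptor. The stronger Smad3 site had HpaII of 37.6 and 13.9 in Neil3-null and 45.2 and 17.3 in wild-type, infarcted before non-infarcted, with nearly even MspI between 59.3 and 68.6 in the 4 samples. The Fbn1 site had folds of 2.24 in Neil3-null and 3.58 in wild-type.

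Of 47 cardiomyocyte genes, 4 held a member, 8.51%, against 7.13% of all genes. By site the share was lower, as members were 0.327% of the list's eligible sites against 0.526% for all genes. Cardiomyocyte genes had a median of 15 eligible sites against 9. Cacna1c, the pore subunit of the L-type calcium channel, held 2, with folds of 3.37 in Neil3-null and 2.34 in wild-type at the stronger. The others were Tbx5 (2.43 in Neil3-null and 2.24 in wild-type) and Mef2c, which are cardiac transcription factors, and Kcnq1, a potassium channel. Of 33 endothelial genes, Erg, an endothelial transcription factor, alone held members, 2 of them, which is 3.03% of the genes. The stronger had HpaII of 20.1 and 4.32 in Neil3-null and 20.8 and 3.19 in wild-type, infarcted before non-infarcted. Both non-infarcted values were under the 5th percentiles of their libraries. Of 24 fibroblast genes, Pdgfra and Ddr2, a collagen receptor, held 1 each, 8.33% of the genes. By site, members were 0.241% of the endothelial and 0.488% of the fibroblast list, also under the 0.526% for all genes. Of 16 smooth muscle and pericyte genes with 350 eligible sites, 0 held a member, against 7.13% of all genes, and so small a list cannot show a lower share. Within 10 kb, 2 of the 16 had a member.

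In the other lists, the share of genes with a member was between 3.57% and 7.69%, against 7.13% of all genes. Alox5ap, which serves leukotriene synthesis, and Il17ra, a cytokine receptor, were 2 of 52 genes of inflammation, with folds of 2.99 in Neil3-null and 2.76 in wild-type at Alox5ap and of 2.23 in Neil3-null and 2.24 in wild-type at Il17ra. Acadl, a fatty acid oxidation enzyme, with folds of 2.89 in Neil3-null and 2.72 in wild-type, and Esrrg, a nuclear receptor, with 3.58 in Neil3-null and 2.41 in wild-type, were 2 of 36 genes of oxidative metabolism. Slc2a1, a glucose transporter, and Angpt2, a vessel growth factor whose site also lies in Mcph1, were 2 of 26 genes of hypoxia and angiogenesis. Cdk6, a cell cycle kinase, was 1 of 28 genes of proliferation. Of 22 genes for enzymes of DNA methylation and demethylation, Tet1, which oxidizes 5-methylcytosine, held 1 member, where HpaII was 29.7 and 11.2 in Neil3-null and 25.3 and 15.8 in wild-type, infarcted before non-infarcted. Of 24 base excision repair genes, Lig3, a DNA ligase, held 1, with folds of 3.26 in Neil3-null and 2.27 in wild-type. These lists were chosen with earlier results known, and the counts are descriptions.

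Members lay away from gene ends and start sites, about as far as sites with a low ratio in general. Inside protein-coding genes lay 53.8% of the members and 53.4% of the eligible sites. Within 1 kb of a gene end lay 120 members, 4.60% (95% Wilson interval 3.86 to 5.47), against 9.59% of the eligible sites. Within 1 kb of a start site lay 3.25% of the members against 8.54%, with chromosome 18 left out of that count, and 20 to 100 kb from one lay 39.8% against 35.8%. Other CCGG were counted only where listed in all 4 samples, so unlisted ones can lie closer. No other listed CCGG lay within 500 bp of 58.7% of the members, against 49.2% of the eligible sites. At least 4 other listed CCGG lay within 500 bp of 0.728% against 1.89%. The rule favours sites that are low in non-infarcted tissue. Both non-infarcted scaled ratios were below 1 at 78.0% of the members and 28.8% of the eligible sites. Of these, 3.39% of the members (2.69 to 4.26) lay within 1 kb of a gene end against 4.21% of the eligible sites. No other listed CCGG lay within 500 bp of 60.3% of these members, against 55.6% of these eligible sites. Most of the distance from gene ends was thus shared by sites with a low ratio in non-infarcted tissue.

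The classes of members differed in place. Of the 48 members with lower MspI, 11 lay within 1 kb of a gene end, 22.9% (13.3 to 36.5), against 62 of the 1833 members with higher HpaII, 3.38% (2.65 to 4.31). Within 250 bp of a start site lay 6 of 47 and 13 of 1767, against 3.41% of the eligible sites, again without chromosome 18. Among eligible sites with both non-infarcted scaled ratios below 1, 4.21% lay within 1 kb of a gene end. The classes were set after the values were seen and were not matched for that ratio. Intervals here count sites, which share the same 4 samples.

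**Figure D5:**
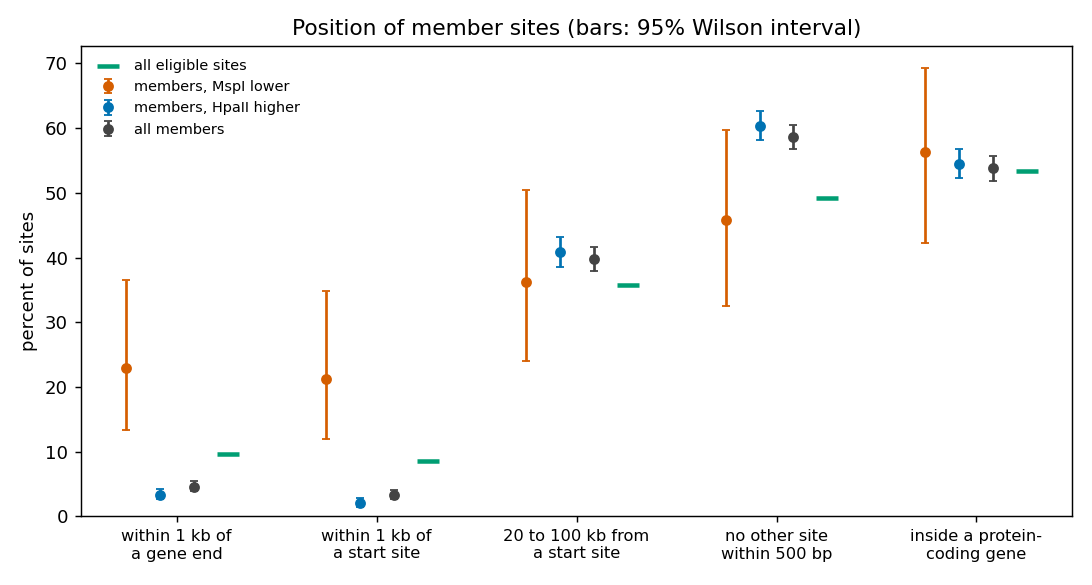
Percent of sites in 5 kinds of place for the 48 members with lower MspI, the 1833 members with higher HpaII, all members and, as green bars, all eligible sites. Vertical lines are 95% Wilson intervals, and the members with lower MspI stand higher, 22.9%, than those with higher HpaII, 3.38%, within 1 kb of a gene end.

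RefSeq promoter windows held 13 members, in 13 windows, among 8494 windows with an eligible site. Windows with a member had a median of 5 CpG and were 49.7% G and C, against 18 CpG and 59.7% in windows with an eligible site and 7 CpG and 52.7% in all 32815 windows. The CpG-rich Wasl window printed above was therefore unlike most of the 13, and Elmod2, with 36 CpG, was the other with as many. At Elmod2 the MspI signal was 20.3 and 69.3 in Neil3-null and 40.3 and 90.5 in wild-type, infarcted before non-infarcted. At Slc10a1, a bile acid transporter of liver, HpaII was 68.4 and 35.9 in Neil3-null and 62.1 and 42.1 in wild-type, in the same order. At Olfm3, MspI was 18.7 and 41.3 in Neil3-null and 6.69 and 67.7 in wild-type, while HpaII was between 90.7 and 107 in all 4 samples. The AP-1 motif TGANTCA was in 0 of the 13 windows, in 5.82% of windows with an eligible site and in 7.81% of all windows, searched on both strands. The ETS motif GAGGAA was in 3 of the 13, in 26.9% of windows with an eligible site and in 28.3% of all windows.

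Near microRNA hairpins the share of members was close to that of all eligible sites. Within 2 kb of an autosomal hairpin lay 1873 eligible sites, of which 12 were members, 0.641%, against 0.532% of all eligible sites. At the site within the Mir92-1 hairpin, part of the cluster that begins with Mir17, HpaII was 25.1 in Neil3-null infarcted and 11.2 in Neil3-null non-infarcted tissue, and 27.1 in wild-type infarcted and 11.2 in wild-type non-infarcted tissue. MspI there was 49.1 and 46.6 in Neil3-null and 38.9 and 41.2 in wild-type, infarcted before non-infarcted. HpaII was higher in both infarcted samples, as the choice of members favours, and the folds were 2.17 in Neil3-null and 2.51 in wild-type. A member 26 bp from the Mir33 hairpin had folds of 2.07 in Neil3-null and 2.56 in wild-type. A member 1419 bp from Mir499, a heart muscle microRNA, belonged to the class with lower MspI, at 22.3 and 57.2 in Neil3-null and 11.3 and 56.4 in wild-type, infarcted before non-infarcted. A member 1779 bp from Mir210, which responds to low oxygen, had folds of 2.53 in Neil3-null and 2.64 in wild-type with higher HpaII.

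Sites beside the members changed little. Within 500 bp of a member, 1075 non-members passed the MspI minimum, with median folds of 1.03 in Neil3-null and 1.08 in wild-type, against 1.002 and 0.995 over all sites that passed it. Within 100 bp there were 144, with median folds of 1.09 in Neil3-null and 1.12 in wild-type. Of those within 100 bp that had HpaII of at least 15 in both infarcted samples, 101 sites, 66.3% were higher in infarcted tissue in Neil3-null and 67.3% in wild-type, against 52.5% and 50.96% of all eligible sites. From 501 to 1000 bp away the median folds were 1.02 in Neil3-null and 1.03 in wild-type. Members are left out of these neighbours by construction, and 10 pairs of members lay within 500 bp of each other.

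The C+mC library, which the rule did not use, moved less than HpaII at the members. Scaled C+mC/MspI had a median fold of 1.17 in Neil3-null and 1.25 in wild-type, against 0.986 and 0.946 at all eligible sites. It shares its MspI denominator with the rule. Scaled C+mC signal alone had median folds of 1.02 in Neil3-null and 1.03 in wild-type, and it was higher in infarcted tissue at 53.0% of members in Neil3-null and 52.5% in wild-type. Scaled MspI alone had median folds of 0.888 in Neil3-null and 0.831 in wild-type. At the 48 members with lower MspI, C+mC had median folds of 0.451 in Neil3-null and 0.516 in wild-type, so the glucosylated library was lower there too, by less than MspI.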

How the data were processed

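Genomic DNA of 4 left ventricle samples was profiled with 3 libraries each, from HpaII, from MspI, and from MspI after glucosylation, per the labels' protocols. The deposited values are a signal normalized by the authors, 1 per library at each CCGG site. The build is mm10, per the submitters' processing notes, with normalization, alignment and filters as steps not given in the sources used here. Depth in tags is unknown. Site positions were raised by 1, after which all 9255 eligible sites in promoter windows read CCGG.

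The scaled ratio is HpaII/MspI divided by its median over autosomal sites with mean MspI of at least 20. Genes, 20665 of them protein-coding and autosomal, start sites, promoters and hairpins came from RefSeq tables on GRCm38.p6. Exons were not used here. Of 425 list genes, 414 matched. Named sites are the 10 top-ranked members in or near genes, up to 8 genes with most members, up to 8 top-ranked members near gene ends and up to 3 members per list, ranked by the smaller fold; the strongest member with higher HpaII, sites at the threshold, promoter windows, hairpins and the further list genes were added after their values were seen. Members and lists were chosen with earlier results of these data known. The code of the rule was checked on simulated data with planted changes and little noise. That check does not show how the rule fares with the noise of these data. Some named sites are not reported here. No p-value was computed, as each group holds 1 sample. Software was Python 3.11.15, pandas 2.3.3 and numpy 2.4.6.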

Additional observations from a re-analysis of the deposited data

Results flagged for a closer look

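At 197 eligible sites the infarcted tissue was at least 2-fold higher in Neil3-null and at most 0.5-fold in wild-type, and at 265 sites it was at most 0.5-fold in Neil3-null and at least 2-fold higher in wild-type. These sites were picked out because the only sample pair of each genotype moved the opposite way. The difference between genotypes was not tested, since each group holds 1 sample, and the sites were counted because of these values. With a mean HpaII of at least 15 over the 4 samples the counts were 849 and 914.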

How the results depend on the processing

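The number of members stayed within 1.5 times under scaling by the median of all or of eligible sites, equal library totals or no scaling (2230 to 2633), under MspI of at least 20 in each sample (1935), under a mean HpaII of at least 15 (2132), with the mean MspI as denominator in every sample (1919) and without the blocks on chromosomes 8 and 1 (2589). Of the members, 79.3% were kept under the mean HpaII minimum, 45.0% with the mean MspI as denominator, 37.1% with a pseudocount of 5, 35.3% with C+mC as denominator and 32.4% with HpaII of 15 in all 4 samples. Members and opposite sites numbered 569 and 63 at a mean MspI of 50, 4227 and 1018 at 10, 880 and 108 with HpaII of 30 in both infarcted samples, 5500 and 6867 with no HpaII minimum, 969 and 126 with a pseudocount of 5, 15600 and 8775 at 1.5-fold, 259 and 34 at 3-fold, and 4340 and 2502 with C+mC as denominator. Opposite sites alone moved to 225 with MspI of 20 in each sample, 1763 with mean HpaII of 15 and 56 with the mean MspI as denominator. With filters added after seeing the data, members numbered 1562 and opposite sites 932 at HpaII of 10 in all 4 samples, and members 845 at HpaII of 15. Within 2 kb of a gene end lay 8.16% of members, by the wider window's construction. At 3-fold, 4.25% lay within 1 kb. Neighbours' median log2 fold moved by under 0.1 at 100 bp, at 1 kb and with the HpaII minimum. The log2 fold of C+mC at members was 0.035 in Neil3-null and 0.046 in wild-type without MspI, against 0.22 and 0.32 with it; these differ by their MspI denominator. Within 10 kb, 1807 genes held a member, 11 of them in the leukocyte list and 7 in the cardiomyocyte list. The cause of the other shifts was not tested. No replicate could be left out. No paired analysis was possible because each group holds 1 sample. Low HpaII signal in non-infarcted tissue limits the folds.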

Other observations

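A lower MspI signal in infarcted tissue was also seen outside the members. Over the 682441 autosomal sites with mean MspI of at least 20, scaled MspI was at most 0.5-fold in both genotypes at 169 sites, at least 2-fold in both at 6, higher in Neil3-null and lower in wild-type at 165, and the reverse at 12. At 4-fold the counts were 31 and 0, with 23 opposite, and 17 of the 31 were members. Scaled C+mC was past the same fold downwards in both genotypes at 79 of the 169 and at 13 of the 31. Median HpaII folds at the 31 were 0.599 in Neil3-null and 0.851 in wild-type, against C+mC folds of 0.147 and 0.248. These counts were made after the values were seen, in 1 sample per group.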
